A study of Homo sapiens with 9 samples.

Results

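NF-kB is a family of transcription factors that carries signals from cytokine and pattern-recognition receptors to the nucleus, and 39 genes of this pathway were followed here after shRNA knockdown of NFATC2 in THP-1 cells. They are the subunits of NF-kB, the IkB proteins that hold them in check or work beside them in the nucleus, the kinases, TRAF and cIAP proteins and deubiquitinases that set the pathway's activity, and inflammatory genes that NF-kB is known to induce. They were chosen by name from what is known of their function, with no measured value in the rule, but with earlier results of these data known. They make up 39 of the 58735 genes in the count table. The THP-1 line was established from a human acute myeloid leukaemia, is monocytic in type and carries the MLL-AF9 fusion. There were 3 libraries of cells given the NFATC2 construct shRNA-143, 3 of cells given the NFATC2 construct shRNA-146 and 3 of cells given a non-targeting control shRNA. All 9 libraries came from cells spinoculated with lentivirus made in 293T cells, placed under puromycin at 24 hours and harvested at 48 hours, so the control cells carried a virus and the drug selection too. Everything was measured in a single cell line, and each knockdown used a single construct.

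In a resting cell the cytoplasmic IkB proteins, of which IkB-alpha from NFKBIA is the best known, bind NF-kB dimers and keep them out of the nucleus. The IKK complex marks them for destruction when a receptor is engaged, the freed RELA and NFKB1 dimers bind kB sites, and among the first genes they switch on are NFKBIA and TNFAIP3, which shut the pathway down again. A second, slower arm runs through the kinase NIK, from MAP3K14, and the NFKB2 and RELB subunits, and is held low by TRAF2, TRAF3 and the cIAP proteins. The nuclear IkB proteins BCL3 and IkB-zeta, from NFKBIZ, act on promoters together with NFKB1 and NFKB2 dimers. NFATC2 belongs to the NFAT factors, whose DNA-binding domain is related to the Rel domain of NF-kB and which bind the short core GGAAA.

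The promoters of the genes that the results turn on are shown first, because they hold the sequence that NF-kB recognises. RefSeq promoter windows on GRCh38.p14, from 250 bases before to 50 bases after a gene's start, matched 31 of the 39 genes. The windows below belong to BIRC3, NFKBIZ and BCL3, and to NFKBIA, the usual gauge of NF-kB activity. With the replicate block described below, BIRC3, NFKBIZ and BCL3 passed for the mean of both constructs, but none of them for shRNA-143 alone. The windows are RefSeq's. They read 5′ to 3′ on the gene's strand, and capitals mark each match to the 10-base kB consensus, which was searched on both strands. The consensus was GGGRNNYYCC, with R for A or G, Y for C or T and N for any base. A match on the other strand reads GGRRNNYCCC in these windows, as those of BIRC3 and NFKBIA do. Positions count from RefSeq's start, which for BCL3 lies inside the gene's span given below. The BIRC3 window lies on the plus strand at chr11:102317234-102317533, and its matches begin at -199 and -135 from the start. That of NFKBIZ lies on the plus strand at chr3:101827740-101828039 with its match at -223 (a second RefSeq window of the gene, at chr3:101849264-101849563, also holds 1 match and is not printed), that of BCL3 on the plus strand at chr19:44748458-44748757 with its match at 2 bases past the start, and that of NFKBIA on the minus strand at chr14:35404700-35404999 with its match at -81.
BIRC3: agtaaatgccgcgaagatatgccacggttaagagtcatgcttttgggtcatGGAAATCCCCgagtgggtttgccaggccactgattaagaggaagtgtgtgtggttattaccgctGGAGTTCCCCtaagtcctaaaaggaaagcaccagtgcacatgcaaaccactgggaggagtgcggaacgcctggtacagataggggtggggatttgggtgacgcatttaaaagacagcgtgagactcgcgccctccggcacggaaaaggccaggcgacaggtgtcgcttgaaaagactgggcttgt
NFKBIZ: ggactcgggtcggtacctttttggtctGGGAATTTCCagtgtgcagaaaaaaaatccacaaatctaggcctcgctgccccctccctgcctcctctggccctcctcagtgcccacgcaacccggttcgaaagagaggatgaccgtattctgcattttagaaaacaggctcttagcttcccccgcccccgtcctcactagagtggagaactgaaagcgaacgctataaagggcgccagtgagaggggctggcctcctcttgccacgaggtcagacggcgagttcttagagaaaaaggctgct
BCL3: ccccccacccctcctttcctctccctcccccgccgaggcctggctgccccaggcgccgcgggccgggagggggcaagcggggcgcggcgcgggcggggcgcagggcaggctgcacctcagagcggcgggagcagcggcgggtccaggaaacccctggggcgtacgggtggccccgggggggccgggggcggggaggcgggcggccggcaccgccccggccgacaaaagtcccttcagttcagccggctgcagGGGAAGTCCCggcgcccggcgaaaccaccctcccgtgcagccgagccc
NFKBIA: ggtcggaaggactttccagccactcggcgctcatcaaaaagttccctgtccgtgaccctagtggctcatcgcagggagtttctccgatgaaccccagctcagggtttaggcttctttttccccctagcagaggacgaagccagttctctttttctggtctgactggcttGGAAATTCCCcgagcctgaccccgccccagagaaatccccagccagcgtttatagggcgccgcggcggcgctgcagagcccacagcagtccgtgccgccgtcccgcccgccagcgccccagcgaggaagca

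A kB match stood in at least 1 window of 17 of the 31 matched genes (54.8%), against 13.2% of the 27305 genes in the RefSeq table and 17.3% of the 10399 tested genes found in it. Per window, 21 of 52 held a match (40.4%), against 11.3% of all 35116 windows. The matched genes had 1.68 windows each against 1.29 over the whole RefSeq set. The 17 genes were BCL3, BIRC3, CD83, CXCL2, CXCL3, CYLD, IL6, NFKB1, NFKB2, NFKBIA, NFKBIB, NFKBID, NFKBIZ, REL, TNFAIP3, TNIP1 and TRAF3. The NFAT core GGAAA, searched on both strands and able to lie inside a kB match, was in a window of 28 of the 31 genes (90.3%), against 65.9% of the genes in the table. The windows of ICAM1, RELA and IL1B held no kB match, which says only that these letters are not in those 300 bases. A match is a description of the sequence, and no binding was measured.

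Library totals ran from 40047459 to 44669709 counts. NFATC2 was lower in both knockdowns. It had 1.49, 7.40 and 6.95 CPM (counts per 1e+06 library counts, after TMM scaling) in shRNA-143 cells and 2.59, 6.71 and 9.43 CPM in shRNA-146 cells, against 12.7, 27.6 and 27.4 CPM in control cells, in replicates 1, 2 and 3. The groups did not overlap, yet by edgeR's quasi-likelihood test across all genes neither knockdown passed without a term for the replicate number (log2 fold changes -2.09 and -1.85, adjusted p = 0.50 and 0.46), whereas both passed with the number as a block (-2.27 and -1.96, adjusted p = 0.0017 and 0.0044). The authors' deposited tables give NFATC2 log2 fold changes of -2.07 and -1.84. Their adjusted p is 0.021 and 0.040, by a test that the headers do not name. Of 10 monocytic markers, 9 averaged over 1 CPM in every group, while CD68 stayed between 0.102 and 0.538 CPM, and 4 of 6 lymphocyte markers were at 0 in every library. The markers listed for epithelial or 293T producer cells summed to 121 to 137 CPM in shRNA-143, 126 to 189 CPM in shRNA-146 and 84.2 to 95.9 CPM in control libraries, nearly all of it LIN28B, with PAX2 and KRT19 at 0 in every library. The fibroblast and endothelial list summed to 95.2 to 197 CPM, 156 to 218 CPM and 111 to 148 CPM in the same order, nearly all of it PECAM1. The part of these marker sums in the results below was not tested.

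Most of the NF-kB pathway sat close to its control level after NFATC2 knockdown. The few genes that passed with TMM scaling, the replicate block and all 9 libraries were BIRC3, NFKBIZ, BCL3 and, with shRNA-146, ICAM1, all of them higher. MAP3K14 was also higher over both constructs (log2 fold change 1.09 ± 0.54 with the block) and did not pass. Of the 39 genes, 36 passed the low-count filter and were tested among 14975 genes. Without the block, edgeR passed 0 of the 36 at an adjusted p of 0.05 for shRNA-143 against control, where 0.0467% of all tested genes passed, 0 for shRNA-146 against control (0.0334% of all) and 0 for the mean of both constructs (0.0334% of all). At an unadjusted p under 0.05 the same fit had 3 members higher with shRNA-143 (BCL3, BIRC3 and NFKBIZ, 3.19% of all genes being higher) and 4 higher with shRNA-146 and with the mean (the same 3 and ICAM1, against 4.28% and 4.39% of all). It had 0 lower in each, against 3.62%, 4.53% and 4.95% of all genes. DESeq2 passed BIRC3 alone, for shRNA-146, where 1.05% of all tested genes passed, and 0 for shRNA-143 (0.942% of all) and for the mean (1.32%). Limma-voom passed 0 in every comparison (0.0267% to 0.0534% of all).

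With the replicate number as a block, 3 of the 36 passed for shRNA-146 against control, all higher: BIRC3, ICAM1 and NFKBIZ, where 4.42% of all tested genes passed in either direction and 2.46% passed as higher. For the mean of both constructs the 3 that passed were BCL3, BIRC3 and NFKBIZ, again all higher (5.74% of all in either direction, 2.98% higher). For shRNA-143 alone 0 passed (3.17% of all), with 4 higher and 3 lower at an unadjusted p under 0.05 (10.8% and 9.96% of all). A count of 3 in 36 is 8.33%, and so few genes describe themselves and not the pathway. The median log2 fold change of the 36 in this fit was 0.06 for shRNA-143, 0.19 for shRNA-146 and 0.10 for the mean, against 0.004, 0.02 and 0.008 over all tested genes. Both constructs were set against the same 3 control libraries, so their values are not independent of each other. In bulk RNA, a larger share of cells that express a gene cannot be told apart from more RNA per cell.

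**Figure D1:**
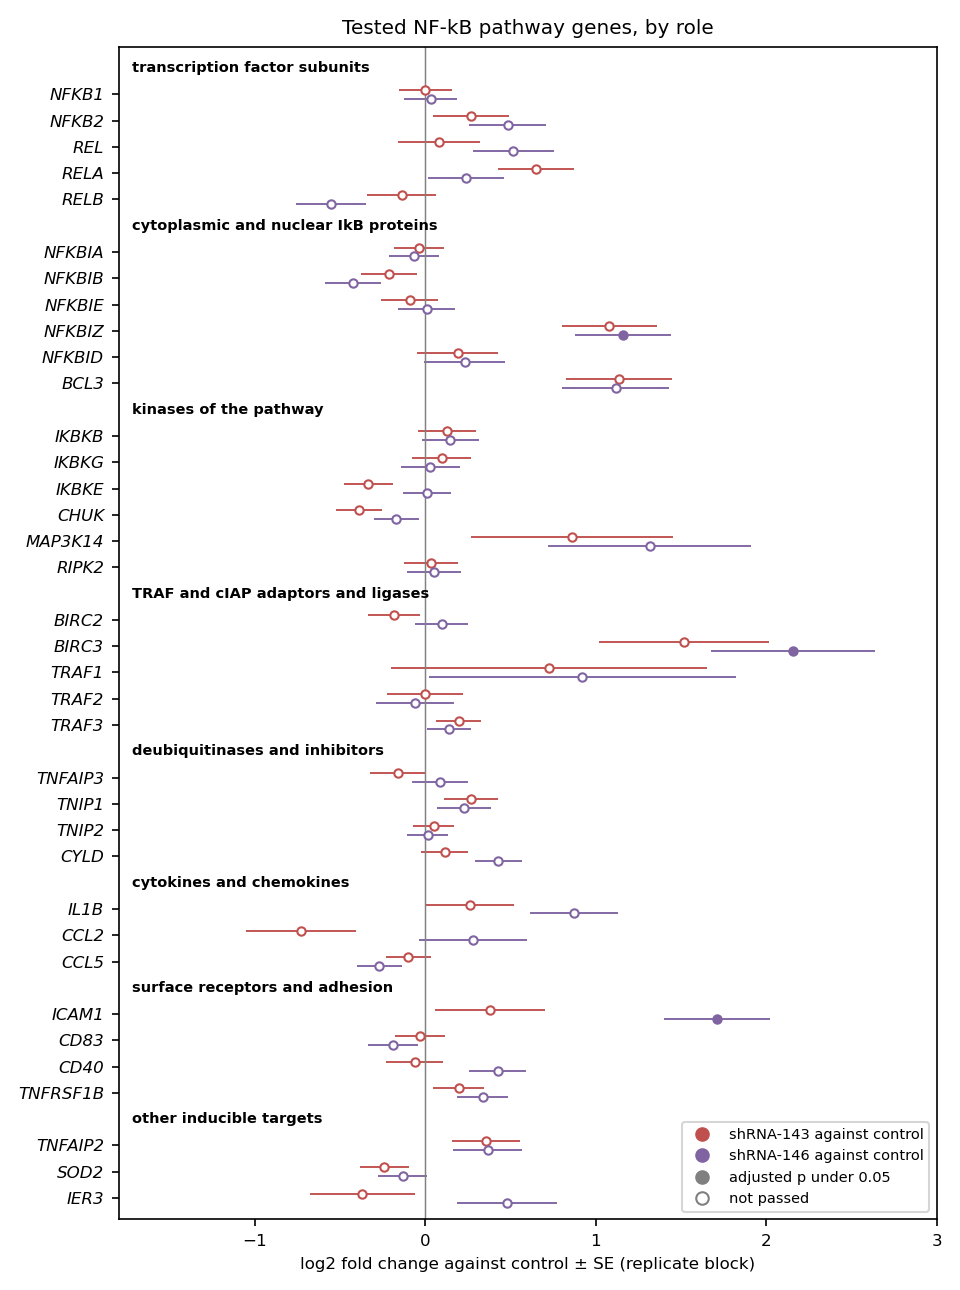
Log2 fold change against control for the 36 tested NF-kB pathway genes, by role, in the edgeR model that takes replicate number as a block; points are shRNA-143 (red, upper) and shRNA-146 (purple, lower) with bars of ± 1 SE, and filled points passed at an adjusted p of 0.05. NFKBIZ, BIRC3 and ICAM1 are filled for shRNA-146, and BCL3 lies at 1.14 and 1.12 with open points, while most other genes lie near 0.

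These counts leaned on single libraries. Over the 9 fits that each left out 1 library with the block kept, the number passing ran from 0 to 4 for shRNA-143, 0 to 8 for shRNA-146 and 0 to 11 for the mean. Without shRNA-146 replicate 1 there were 4, 8 and 11 (11.1%, 22.2% and 30.6% of the 36), where 14.1%, 11.5% and 20.4% of all tested genes passed. Without shRNA-146 replicate 3 there were 2, 2 and 2 (5.56% each), where 7.03%, 2.24% and 6.12% of all passed. For shRNA-146 the count was 0 without any of the 3 control libraries (0.180% to 0.928% of all tested genes passed). It was 1 without shRNA-143 replicate 2, shRNA-143 replicate 3 or shRNA-146 replicate 2 (1.52%, 2.02% and 1.64% of all). It was 2 without shRNA-143 replicate 1 (3.69% of all). For the mean the count was 0 without any of the other 7 libraries (0.0935% to 4.17% of all). Leaving out all 3 libraries numbered 1, an alternative added after the data were seen, gave 2, 6 and 6 without the block (3.91%, 6.13% and 9.99% of all genes passed) and 4, 8 and 10 with it (10.5%, 14.1% and 19.4% of all). In that fit with the block NFKBIZ, BCL3 and MAP3K14 passed in all 3 comparisons with control, and BIRC3 in none.

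Among the subunits, RELA had the highest level per kilobase of exon in every group and was above the control of its number in 5 of 6 pairs, and no subunit passed with all 9 libraries, with or without the block. RELA, or p65, carries the main transactivation domain of NF-kB. It had 42.2, 54.1 and 39.8 CPM in shRNA-143 cells and 18.5, 48.2 and 40.9 CPM in shRNA-146 cells, against 23.6, 43.3 and 23.1 CPM in control cells. The groups overlapped: each shRNA-143 library was above the control of its own number, and shRNA-146 replicate 1 was the lowest of all 9. Its log2 fold change was 0.60 ± 0.37 (SE, n = 3 libraries a group) for shRNA-143 and 0.43 ± 0.33 for the mean of both constructs (edgeR adjusted p = 0.86 and 0.76), and under the block 0.65 ± 0.22 and 0.44 ± 0.20 (adjusted p = 0.14 and 0.18). For shRNA-146 it was 0.26 ± 0.37 (adjusted p = 0.90). With the block RELA passed for shRNA-143 without shRNA-146 replicate 1 or 3 (edgeR adjusted p = 0.015 and 0.036) and for the mean without shRNA-146 replicate 1 (0.013) or without the libraries numbered 1 (0.034). A non-coding gene on the opposite strand shares exon bases with RELA, and since it is not stated whether counting used strand, part of its count is uncertain.

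NFKB1, which encodes p105 and its p50 product, did not separate the groups. It had 14.6, 24.6 and 25.1 CPM in shRNA-143 cells and 17.1, 23.7 and 24.1 CPM in shRNA-146 cells, against 16.9, 27.4 and 19.4 CPM in control cells, with replicate 1 the lowest in every group. The log2 fold change of the mean of both constructs was 0.02 ± 0.24 (edgeR adjusted p = 0.98), or -0.06 with the block and a correction for gene length. NFKB2, the p100 and p52 gene of the slower arm, averaged 8.92 ± 2.65 CPM in shRNA-143 and 11.1 ± 5.74 CPM in shRNA-146 cells, against 7.31 ± 2.0 CPM in control cells (SD, n = 3 each). NFKB2 passed for shRNA-146 and for the mean without the libraries numbered 1, with the block (edgeR adjusted p = 0.011 and 0.020) and without it (0.030 and 0.047), and with the block without shRNA-146 replicate 1 (0.013 and 0.017). REL, the c-Rel subunit known from lymphocytes, averaged 1.87 ± 0.85 CPM with shRNA-143 and 2.47 ± 0.89 CPM with shRNA-146, against 1.75 ± 0.84 CPM in control cells. RELB, the partner of p52, was below the control of its own number in 6 of 6 pairs, at 7.64, 8.62 and 8.39 CPM in shRNA-143 cells and 3.78, 8.04 and 7.28 CPM in shRNA-146 cells, against 8.03, 9.05 and 10.2 CPM in control cells. Its log2 fold change over both constructs was -0.33 ± 0.24 without and -0.35 ± 0.17 with the block (edgeR adjusted p = 0.74 and 0.24). On the scale of CPM per kilobase of exon, which allows levels to be set between genes, control cells had 5.49 of RELA, 3.40 of NFKB1, 3.0 of RELB, 1.63 of NFKB2 and 0.133 of REL.

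Among the IkB genes, the cytoplasmic inhibitors NFKBIA, NFKBIB and NFKBIE lay near control, while the nuclear IkB genes NFKBIZ and BCL3 stood at 2.12- to 2.32-fold of it by the fit without the block. NFKBIA had 49.9, 44.6 and 38.7 CPM in shRNA-143 cells and 43.5, 51.7 and 35.5 CPM in shRNA-146 cells, against 48.4, 42.4 and 45.1 CPM in control cells. These overlapped throughout, and the log2 fold change of the mean was -0.04 ± 0.17 (edgeR adjusted p = 0.95), or 0.07 with scaling by library size alone. NFKBIE, which encodes IkB-epsilon, averaged 32.5 ± 4.02 CPM in shRNA-143 and 35.4 ± 10.3 CPM in shRNA-146 cells, against 34.4 ± 2.42 CPM in control cells. NFKBIB, which encodes IkB-beta, was below the control of its number in 6 of 6 pairs, at 20.3, 23.02 and 28.0 CPM with shRNA-143 and 13.2, 20.7 and 29.7 CPM with shRNA-146, against 23.9, 26.6 and 31.7 CPM in control cells. Its log2 fold change over both constructs was -0.29 ± 0.25 without and -0.32 ± 0.14 with the block (edgeR adjusted p = 0.79 and 0.18), and SIRT2 overlaps its exons on the opposite strand.

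NFKBIZ, an inducible nuclear IkB protein needed in mouse macrophages for a later set of inflammatory genes such as IL6, lies on chromosome 3 at 101827991 to 101861022 on the plus strand (hg38, GENCODE 29). The first of its 2 promoter windows is the one with GGGAATTTCC shown above. It had 1.79, 3.17 and 2.51 CPM in shRNA-143 cells and 1.47, 2.91 and 3.66 CPM in shRNA-146 cells, against 1.05, 1.40 and 1.01 CPM in control cells, on counts of 58 to 175 in the knockdown libraries and 37 to 59 in the control ones. Every knockdown library was above every control library. Against the control of its own number it was 1.71, 2.26 and 2.5 times as high with shRNA-143 and 1.40, 2.08 and 3.63 times with shRNA-146. The log2 fold changes were 1.11 ± 0.38 and 1.22 ± 0.38 (edgeR adjusted p = 0.57 and 0.44), and under the block 1.08 ± 0.28 and 1.16 ± 0.28 (adjusted p = 0.063 and 0.043). Over both constructs the change was 1.16 ± 0.34 without and 1.12 ± 0.25 with the block (edgeR adjusted p = 0.36 and 0.031). With the block, the call for the mean was kept without shRNA-146 replicate 1 or replicate 3 and was lost without any of the other 7 libraries (adjusted p from 0.052 to 0.22), and, of the 9 fits that left out a library, the call for shRNA-146 was kept in the one without shRNA-146 replicate 1 (0.060 to 0.23 without any of the other 8). The shRNA-146 call was also lost with the block and a gene length correction (edgeR adjusted p = 0.056) or library size scaling (0.0501).

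BCL3, a nuclear IkB protein that binds p50 and p52 dimers and was found at a chromosomal breakpoint in B-cell leukaemia, lies on chromosome 19 at 44747705 to 44760044 on the plus strand. The printed promoter window begins at 44748458 and lies wholly within that span, so its RefSeq start is not the gene start given here. The levels of BCL3 were the highest of the nuclear IkB genes, also per kilobase (6.42 with shRNA-143 and 6.98 with shRNA-146, against 3.03 in control cells). It had 22.3, 19.2 and 21.0 CPM in shRNA-143 cells and 8.86, 27.8 and 31.2 CPM in shRNA-146 cells, against 7.89, 11.1 and 10.4 CPM in control cells. All shRNA-143 libraries were above all control libraries, while shRNA-146 replicate 1 fell within the control range and shRNA-146 replicates 2 and 3 were the highest of the 9. Within the numbers the ratio to control was 2.82, 1.72 and 2.02 with shRNA-143 and 1.12, 2.5 and 2.99 with shRNA-146. The log2 fold changes were 1.09 ± 0.40 and 1.21 ± 0.40 (edgeR adjusted p = 0.63 and 0.45), under the block 1.14 ± 0.31 and 1.12 ± 0.31 (adjusted p = 0.077 and 0.071), and over both constructs 1.15 ± 0.36 without and 1.13 ± 0.28 with the block (adjusted p = 0.39 and 0.044). With the block the call for the mean held without shRNA-146 replicate 1 (adjusted p = 0.00063) and was lost without any of the other 8 libraries (0.070 to 0.25), and also with library size scaling (0.057). In the authors' deposited table for shRNA-143 BCL3 had a log2 fold change of 1.10 and an adjusted p of 0.0012, the only member under 0.05 in either of their tables, and for shRNA-146 1.22 and 0.34. NFKBID, the third nuclear IkB gene, which encodes IkBNS, averaged 4.41 ± 0.76 CPM in shRNA-143 and 4.69 ± 1.93 CPM in shRNA-146 cells, against 3.82 ± 0.54 CPM in control cells.

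**Figure D2:**
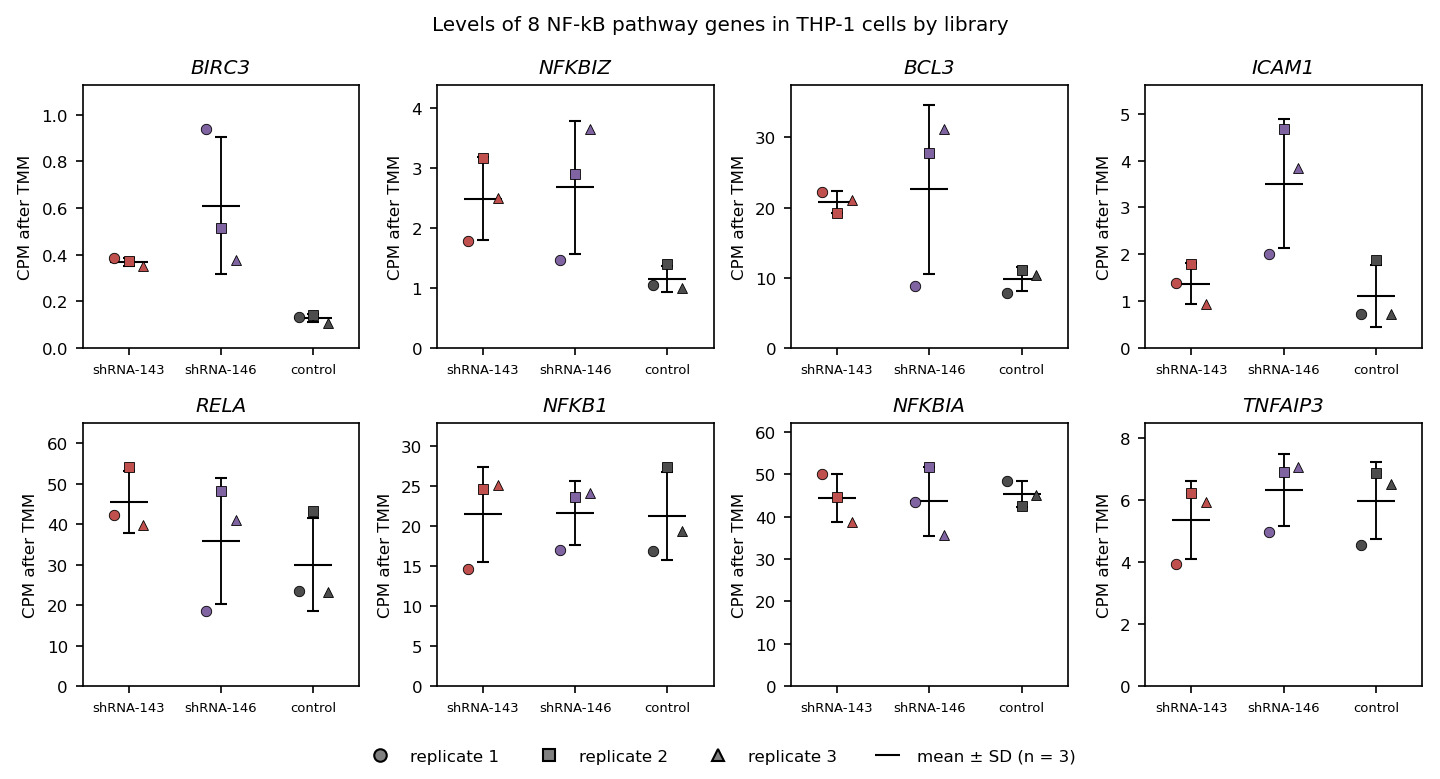
CPM after TMM scaling in each of the 9 libraries for 8 NF-kB pathway genes, with replicate numbers as circles, squares and triangles and black bars for the mean ± SD of 3 libraries. All knockdown libraries of BIRC3 and NFKBIZ lie above the control libraries, shRNA-146 replicate 1 of BCL3 lies at 8.86 among the controls, and NFKBIA and TNFAIP3 overlap in all groups.

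The kinases of the pathway did not pass against control with all 9 libraries, with or without the block. CHUK, which encodes IKK-alpha, had 66.2, 53.0 and 50.7 CPM with shRNA-143 and 85.3, 59.8 and 54.6 CPM with shRNA-146, against 80.4, 76.4 and 64.7 CPM in control cells. It was lower than the control of its number in all shRNA-143 libraries (log2 fold change -0.38 ± 0.22 without and -0.39 ± 0.13 with the block, edgeR adjusted p = 0.84 and 0.14) and in 2 of 3 shRNA-146 libraries. With the block CHUK passed as lower for shRNA-143 and for the mean without shRNA-146 replicate 1 (edgeR adjusted p = 0.026 for both) or without the libraries numbered 1 (0.045 and 0.033), and it shares exon bases with ERLIN1. IKBKB, the IKK-beta kinase that phosphorylates IkB-alpha, averaged 14.4 ± 4.56 CPM with shRNA-143 and 14.4 ± 3.73 CPM with shRNA-146, against 12.7 ± 1.48 CPM in control cells. IKBKG, the scaffold NEMO, averaged 7.17 ± 0.77 CPM and 6.85 ± 0.88 CPM with shRNA-143 and shRNA-146, against 6.72 ± 0.78 CPM in control cells, and part of its count is uncertain. RIPK2, the kinase that relays signals from the NOD receptors, averaged 20.9 ± 1.79 CPM and 21.5 ± 5.80 CPM, against 20.4 ± 1.94 CPM in control cells. MAP3K14, the NIK kinase of the slower arm, varied most, at 0.590, 2.74 and 1.64 CPM with shRNA-143 and 0.355, 3.59 and 3.20 CPM with shRNA-146, against 0.808, 1.26 and 0.299 CPM in control cells. Its libraries numbered 2 and 3 were higher in both knockdowns and those numbered 1 lower. The log2 fold change of MAP3K14 over both constructs was 1.33 ± 0.76 without and 1.09 ± 0.54 with the block (edgeR adjusted p = 0.64 and 0.23). Without the libraries numbered 1 it was 1.78 ± 0.45 and 1.88 ± 0.35 (edgeR adjusted p = 0.038 and 0.010), and an antisense gene, MAP3K14-AS1, overlaps its exons.

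BIRC3 had the largest fold difference of the 36 tested genes in both comparisons with control. It encodes cIAP2, a ubiquitin ligase that acts with TRAF2 downstream of TNF receptors and is itself a known NF-kB target, and lies on chromosome 11 at 102317450 to 102339403 on the plus strand, with the pair of kB matches shown above. The gene was scarce: it had 0.385, 0.373 and 0.350 CPM in shRNA-143 cells and 0.939, 0.513 and 0.376 CPM in shRNA-146 cells, against 0.135, 0.143 and 0.109 CPM in control cells, from 15 to 37 counts in the knockdown libraries and 4 to 6 in the control ones. All 6 knockdown libraries were above all 3 control libraries, at 2.86, 2.62 and 3.21 times the control of their number with shRNA-143 and 6.97, 3.60 and 3.46 times with shRNA-146. The log2 fold changes were 1.49 ± 0.48 and 2.21 ± 0.47 (edgeR adjusted p = 0.53 and 0.23), under the block 1.52 ± 0.50 and 2.16 ± 0.48 (adjusted p = 0.13 and 0.035), and over both constructs 1.85 ± 0.43 without and 1.84 ± 0.45 with the block (adjusted p = 0.27 and 0.040). With the block, the shRNA-146 call was kept without shRNA-143 replicate 1, shRNA-146 replicate 1 or shRNA-146 replicate 3 and was lost without any of the other 6 libraries (adjusted p from 0.062 to 0.14), and that of the mean was kept without shRNA-146 replicate 1 or replicate 3 and lost without any of the other 7 (0.050 to 0.18), and also with a gene length correction (0.054). The authors' deposited table for shRNA-146 gives BIRC3 a log2 fold change of 2.24 with a p of 0.0021 and an adjusted p of 1. It gives exactly 1 to 10640 of its 23854 genes, while NFKBIZ, with a larger p of 0.0065, has an adjusted p of 0.33. The 1 for BIRC3 can therefore stand for a missing adjustment and is not read as a test result.

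Its relatives did not share the pattern of values. BIRC2, which encodes the sister ligase cIAP1, averaged 20.9 ± 2.58 CPM with shRNA-143 and 26.1 ± 9.26 CPM with shRNA-146, against 23.8 ± 3.13 CPM in control cells, so that per kilobase control cells had 5.24 CPM of BIRC2 and 0.0171 CPM of BIRC3. TRAF2, the adaptor of the TNF receptor complex, averaged 20.5 ± 3.90 CPM and 20.4 ± 8.83 CPM with shRNA-143 and shRNA-146, against 20.1 ± 2.33 CPM in control cells. TRAF3, which targets NIK for breakdown, averaged 33.4 ± 8.30 CPM and 32.2 ± 8.70 CPM, against 28.8 ± 5.14 CPM in control cells. TRAF1, an inducible TRAF protein, was at 0 to 0.481 CPM in the knockdown libraries, against 0.0238 to 0.191 CPM in the control libraries, on at most 23 counts.

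Deubiquitinases and their partners, which end NF-kB signalling, lay near control. TNFAIP3, the gene of A20, had 3.92, 6.22 and 5.94 CPM in shRNA-143 cells and 4.97, 6.91 and 7.07 CPM in shRNA-146 cells, against 4.55, 6.87 and 6.50 CPM in control cells, with the groups overlapping. CYLD, which removes ubiquitin chains from NEMO and TRAF2, had 22.0, 16.9 and 17.9 CPM with shRNA-143 and 28.6, 22.4 and 19.97 CPM with shRNA-146, against 19.5, 15.6 and 17.2 CPM in control cells. All shRNA-146 libraries were above all control libraries, and all 6 knockdown libraries above the control of their number. The log2 fold change of CYLD with shRNA-146 was 0.44 ± 0.21 without and 0.43 ± 0.14 with the block (edgeR adjusted p = 0.60 and 0.098). TNIP1, the A20 partner ABIN1, ran from 25.3 to 81.3 CPM in the knockdown libraries, against 29.8 to 57.8 CPM in the control ones, and TNIP2, or ABIN2, from 58.9 to 76.4 CPM against 62.7 to 72.4 CPM. TNIP1 was lowest in the libraries numbered 1 of all groups. Without those libraries it passed as higher for the mean (edgeR adjusted p = 0.043, or 0.022 with the block). With the block it then also passed for shRNA-146 (0.033). Leaving out shRNA-146 replicate 1 alone, with the block, it passed for the mean (0.041).

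Of the 6 cytokine and chemokine genes, 3 had too few counts to test. IL6 had 0 counts in all 9 libraries, where a count of 0 allows up to 3 counts, or 0.0615 to 0.0816 CPM, from counting error alone. CXCL3 had 1 and 2 counts in shRNA-146 replicates 2 and 3 and 0 in the other libraries, and CXCL2 had at most 3 counts in any library of any group. IL1B, the pyrogenic cytokine of monocytes, had 3.0, 1.68 and 1.22 CPM in shRNA-143 cells and 4.87, 2.79 and 1.55 CPM in shRNA-146 cells, against 2.32, 1.12 and 1.36 CPM in control cells. Each shRNA-146 library was above the control of its number, with a log2 fold change of 0.94 ± 0.50 without and 0.87 ± 0.26 with the block (edgeR adjusted p = 0.63 and 0.078). CCL2, which attracts monocytes, ran from 0.787 to 5.56 CPM in the knockdown libraries, against 2.07 to 7.49 CPM in the control ones, and its shRNA-143 libraries were each below the control of their number. CCL5, the T-cell chemokine RANTES, was the most abundant gene of the 39 per kilobase. It had 91.6, 81.4 and 94.7 CPM with shRNA-143 and 74.7, 82.8 and 79.8 CPM with shRNA-146, against 92.2, 84.3 and 112 CPM in control cells. All shRNA-146 libraries lay below all control libraries, and the log2 fold change over both constructs was -0.19 ± 0.15 (edgeR adjusted p = 0.75), or 0.03 with the block and a correction for gene length.

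ICAM1 was the surface gene that stood apart, with shRNA-146. It encodes an adhesion ligand of leukocyte integrins, is induced on monocytes by NF-kB, and lies on chromosome 19 at 10270835 to 10286615 on the plus strand. It had 1.38, 1.80 and 0.939 CPM in shRNA-143 cells and 2.01, 4.68 and 3.85 CPM in shRNA-146 cells, against 0.727, 1.88 and 0.735 CPM in control cells. All shRNA-146 libraries were above all control and all shRNA-143 libraries, whereas shRNA-143 and control overlapped. Within the numbers shRNA-146 was 2.76, 2.49 and 5.24 times control, and shRNA-143 was 1.90, 0.961 and 1.28 times control. The log2 fold change was 1.65 ± 0.48 for shRNA-146 (edgeR adjusted p = 0.42) and with the block 1.71 ± 0.31 (adjusted p = 0.016), against 0.30 ± 0.48 and with the block 0.38 ± 0.32 for shRNA-143 (adjusted p = 0.94 and 0.53). Over both constructs it was 0.98 ± 0.43 without and 1.05 ± 0.28 with the block (edgeR adjusted p = 0.53 and 0.055). With the block the shRNA-146 call held without each of the 6 knockdown libraries (adjusted p from 0.0051 to 0.049) and was lost without any of the 3 control libraries (0.071 to 0.12). The authors' deposited table for shRNA-146 gives ICAM1 a log2 fold change of 1.66 and an adjusted p of 0.14. Antisense genes overlap ICAM1, with 9 counts in all libraries together.

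The other surface and target genes showed smaller differences. CD40, the receptor through which T cells activate monocytes, averaged 5.38 ± 0.83 CPM with shRNA-143 and 7.60 ± 1.72 CPM with shRNA-146, against 5.63 ± 0.97 CPM in control cells. CD83, a marker of dendritic cell maturation, averaged 19.3 ± 2.35 CPM and 17.5 ± 4.22 CPM with shRNA-143 and shRNA-146, against 19.6 ± 1.13 CPM in control cells. TNFRSF1B, the TNF receptor TNFR2, averaged 96.1 ± 20.9 CPM and 108 ± 37.1 CPM, against 82.7 ± 9.62 CPM in control cells. With the block it passed for shRNA-146 and the mean without shRNA-146 replicate 1 (edgeR adjusted p = 0.029 and 0.030). Without the libraries numbered 1 and with the block it passed for both too (0.024 and 0.032). TNFAIP2, a gene induced by TNF, had 48.5, 77.0 and 61.8 CPM with shRNA-143 and 33.0, 80.4 and 83.0 CPM with shRNA-146, against 42.1, 56.5 and 45.4 CPM in control cells. Its log2 fold change over both constructs was 0.41 ± 0.30 without and 0.36 ± 0.18 with the block (edgeR adjusted p = 0.73 and 0.23). TNFAIP2 passed for shRNA-146 and the mean without the libraries numbered 1 (edgeR adjusted p = 0.033 and 0.032, with the block 0.011 and 0.012). With the block it also passed for both without shRNA-146 replicate 1 (0.015 and 0.011). SOD2, the mitochondrial superoxide dismutase and a classic TNF target, averaged 49.3 ± 6.36 CPM with shRNA-143 and 54.0 ± 15.5 CPM with shRNA-146, against 58.1 ± 6.10 CPM in control cells, and WTAP overlaps it on the opposite strand. IER3, an immediate early gene, ran from 0.385 to 2.13 CPM in the knockdown libraries, against 0.544 to 1.26 CPM in the control ones.

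**Figure D3:**
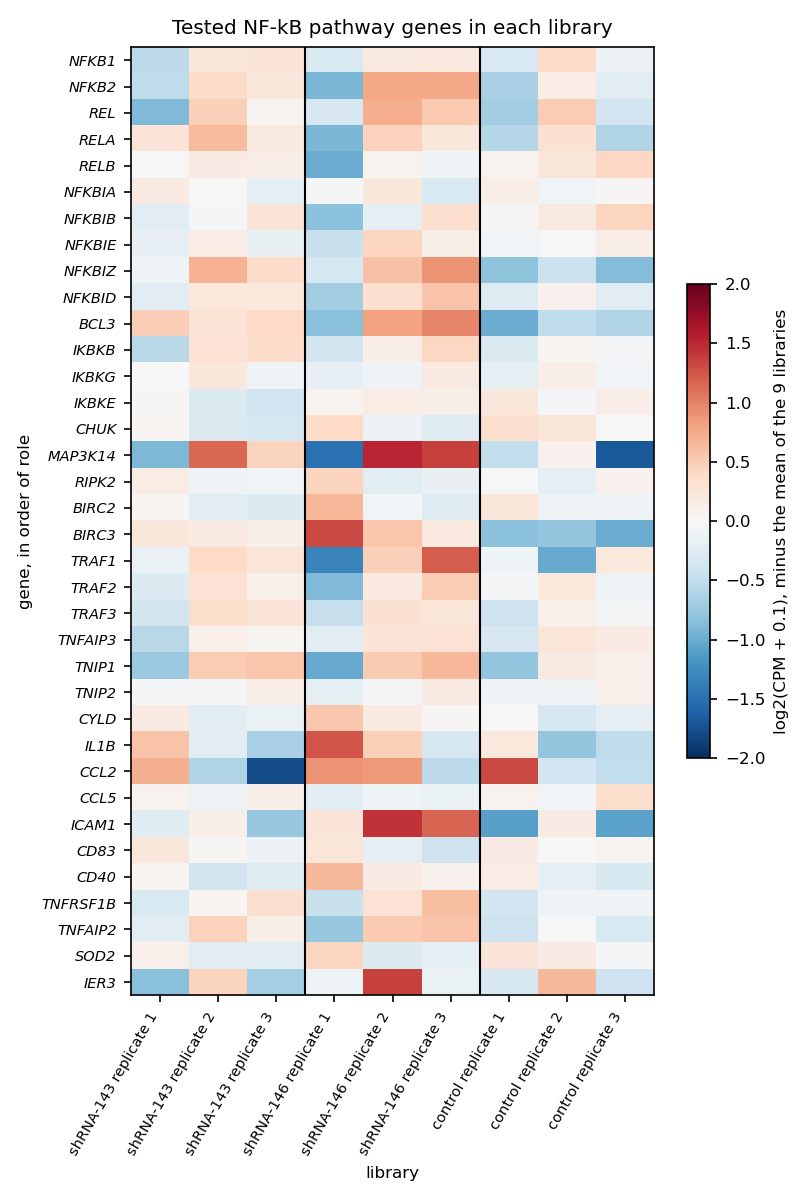
Level of the 36 tested NF-kB pathway genes in each library, as log2(CPM + 0.1) minus the gene's mean over the 9 libraries, with genes in order of role and black lines between the groups. BIRC3, NFKBIZ and BCL3 are above their mean in the knockdown libraries, except BCL3 in shRNA-146 replicate 1 and NFKBIZ in replicate 1 of both constructs, ICAM1 is highest in shRNA-146 replicates 2 and 3, and many genes are low in the libraries numbered 1.

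Counting genes by separation gave few names against a similar background. For 3 genes, BCL3, BIRC3 and NFKBIZ, every shRNA-143 library was above every control library (8.33% of the 36, against 7.09% of all tested genes), and for 0 every one was below (8.11% of all). For 4, BIRC3, CYLD, ICAM1 and NFKBIZ, every shRNA-146 library was above every control library (11.1%, against 7.25%), and for CCL5 every one was below (7.46% of all). All knockdown libraries of both constructs were above all control libraries for BIRC3 and NFKBIZ, a pattern of 3.08% of all genes. Against the control of the same number, BCL3, BIRC3, CYLD and NFKBIZ were higher in 6 of 6 pairs (12.4% of all genes) and CCL5, NFKBIB and RELB lower in 6 of 6 (13.1%).

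Levels of these genes differed more between replicate numbers than between groups. For 27 of the 36 (75.0%), the means of the 3 numbers differed by a larger fold than the means of the 3 groups, as for 68.0% of all tested genes. The median fold between the highest and lowest number mean was 1.56, and between the highest and lowest group mean 1.30 (1.52 and 1.32 over all genes). The 3 libraries numbered 1 were below all 6 others for IKBKB, NFKB1, NFKB2, TNFAIP3, TNFRSF1B, TNIP1 and TRAF3 (20.3% of all genes) and above all of them for BIRC2 and CD83 (14.3% of all). NFATC2 itself was 0.392 times as high in the libraries numbered 1 as in the others. What libraries of one number have in common is not given in the labels.

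Between the constructs, without the block, the log2 difference of shRNA-146 over shRNA-143 was above 0 for 26 of the 36 genes. It was below 0 for 10, and 72.2% of the 36 were above 0 against 52.1% of all tested genes. With the block fewer of the 36 were above 0, and none passed in either fit. Without the block edgeR passed 0 of the 36 for shRNA-146 against shRNA-143 (0.0467% of all genes passed), with ICAM1 alone higher (2.3% of all) and 0 lower (1.45% of all) at an unadjusted p under 0.05. With the block 0 passed (1.2% of all), and 7 were higher and 0 lower at an unadjusted p under 0.05, against 5.9% and 4.46% of all genes. Leaving out shRNA-146 replicate 1 with the block gave 2, CCL2 and ICAM1, where 2.26% of all tested genes passed. Leaving out any of the other 8 libraries with the block gave 0 (0.194% to 1.15% of all). ICAM1 differed by a log2 value of 1.35 ± 0.47 without and 1.33 ± 0.31 with the block (edgeR adjusted p = 0.98 and 0.073). CD40, ICAM1 and IKBKE had every shRNA-146 library above every shRNA-143 library, a pattern of 4.49% of all genes. IKBKE, a kinase related to TBK1, had 31.7, 33.5 and 32.8 CPM with shRNA-146, against 30.5, 24.6 and 22.9 CPM with shRNA-143, beside 35.3, 29.5 and 33.1 CPM in control cells. Its log2 difference was 0.33 ± 0.18 and that of CD40 0.50 ± 0.25 (edgeR adjusted p = 1.0 for both), and under the block 0.34 ± 0.14 and 0.49 ± 0.17 (adjusted p = 0.42 and 0.28). CCL2 had a log2 difference of 0.78 ± 0.72 without and 1.01 ± 0.32 with the block (edgeR adjusted p = 1.0 and 0.24). BIRC3 and NFKBIZ differed by 0.71 ± 0.42 and 0.11 ± 0.37 (edgeR adjusted p = 1.0 for both), and BCL3 by 0.12 ± 0.39 without and -0.02 ± 0.31 with the block (adjusted p = 1.0 and 0.99).

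Other genes of the pathway, from lists of receptors and proximal adaptors, of the TAK1 complex and ubiquitin machinery and of further inducible targets, numbered 74, of which 65 were tested. Without the block edgeR passed 0 of the 65 in all 4 comparisons, with 4 higher and 3 lower for shRNA-143, 6 and 0 for shRNA-146, 6 and 1 for the mean, and 3 and 0 between the constructs at an unadjusted p under 0.05. Those are 6.15% and 4.62%, 9.23% and 0%, 9.23% and 1.54%, and 4.62% and 0% of the 65, against 3.19% and 3.62%, 4.28% and 4.53%, 4.39% and 4.95%, and 2.3% and 1.45% of all tested genes. With the block, 2 were higher and 1 lower for shRNA-143, 5 higher and 0 lower for shRNA-146, 3 higher and 0 lower for the mean, and 3 higher and 0 lower for shRNA-146 against shRNA-143, where 3.17%, 4.42%, 5.74% and 1.2% of all tested genes passed in either direction. Those that passed were SDC4 and TLR1 (higher) and PELI1 (lower) with shRNA-143, and SDC4, IRF1, TLR2, IL1RAP and PLAUR with shRNA-146. CCL4, CXCL1, CXCL10, IL10, IL1A, LTA, TLR5, TLR8 and VCAM1 had too few counts to test.

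SDC4, a cell-surface proteoglycan induced by TNF, was the clearest of them. It had 42.8, 29.8 and 27.5 CPM with shRNA-143 and 39.8, 35.0 and 25.3 CPM with shRNA-146, against 21.5, 16.5 and 15.0 CPM in control cells. All knockdown libraries were above all control libraries, and the log2 fold change over both constructs was 0.92 ± 0.23 without and 0.91 ± 0.12 with the block (edgeR adjusted p = 0.30 and 0.0051, and 0.077 without control replicate 2). TLR2, the receptor for bacterial lipoproteins, had 74.1, 50.2 and 43.0 CPM with shRNA-143 and 87.3, 58.2 and 49.3 CPM with shRNA-146, against 52.1, 37.3 and 30.3 CPM in control cells. The groups overlapped across numbers but not within them, and the log2 fold change was 0.59 ± 0.27 without and 0.59 ± 0.11 with the block (edgeR adjusted p = 0.55 and 0.014, and 0.060 to 0.11 without any of the 3 control libraries, shRNA-143 replicate 2 or shRNA-143 replicate 3). IRF1, an interferon and NF-kB target, had 25.8, 35.5 and 32.4 CPM with shRNA-143 and 27.2, 38.8 and 41.8 CPM with shRNA-146, against 21.6, 22.0 and 22.0 CPM in control cells. Every knockdown library was above every control library, with a log2 fold change of 0.61 ± 0.19 without and 0.59 ± 0.13 with the block (edgeR adjusted p = 0.38 and 0.031, and 0.050 to 0.21 without any of the 3 control libraries, shRNA-143 replicate 2, shRNA-143 replicate 3 or shRNA-146 replicate 2).

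The remaining 4 set the constructs apart or passed with only 1 of them. PLAUR, the urokinase receptor, had 102, 103 and 81.4 CPM with shRNA-146, against 48.4, 49.4 and 46.2 CPM with shRNA-143, beside 71.0, 64.6 and 62.5 CPM in control cells. PELI1, a ubiquitin ligase of Toll-like receptor signalling, had 14.8, 9.78 and 8.15 CPM with shRNA-146, against 5.97, 4.79 and 3.10 CPM with shRNA-143, beside 11.0, 7.51 and 6.50 CPM in control cells. The values of both genes lay on opposite sides of control with the 2 constructs. The log2 difference of shRNA-146 over shRNA-143 was 0.98 ± 0.13 for PLAUR and 1.24 ± 0.17 for PELI1 with the block (edgeR adjusted p = 0.0049 and 0.0051), and 0.99 ± 0.17 and 1.24 ± 0.34 without it (adjusted p = 0.12 and 0.65). With the block PLAUR was lost without shRNA-143 replicate 1 or 2 and PELI1 without shRNA-143 replicate 1 or 3 (adjusted p from 0.060 to 0.063). Against control the calls leaned on more libraries: with the block PLAUR with shRNA-146 was lost in 7 of 9 fits that left out a library (edgeR adjusted p from 0.056 to 0.20) and PELI1 with shRNA-143 in 6 of 9 (0.075 to 0.20). IL1RAP, the accessory chain of the interleukin-1 receptor, had 82.7, 67.8 and 43.7 CPM with shRNA-146, against 42.8, 44.0 and 31.8 CPM with shRNA-143, beside 41.8, 45.0 and 26.5 CPM in control cells (difference 0.71 ± 0.29 without and 0.68 ± 0.14 with the block, edgeR adjusted p = 1.0 and 0.048). That difference kept its call without shRNA-146 replicate 1 or 3 and lost without any of the other 7 libraries (adjusted p from 0.068 to 0.38). TLR1, the partner of TLR2, had 5.85, 5.22 and 3.30 CPM with shRNA-143 and 4.04, 4.20 and 2.53 CPM with shRNA-146, against 2.02, 3.37 and 2.01 CPM in control cells. Its shRNA-143 value was 0.95 ± 0.34 without and 0.94 ± 0.22 with the block (edgeR adjusted p = 0.60 and 0.047), and it passed without shRNA-146 replicate 1 or 3 but not without any of the other 7 libraries (0.086 to 0.20). Of the other calls against control with shRNA-146, IRF1 was lost in 6 of 9 such fits (0.061 to 0.17), TLR2 and IL1RAP in 4 of 9 each (0.051 to 0.0997) and SDC4 in 1 of 9 (0.079), and SDC4 with shRNA-143 in 3 of 9 (0.055 to 0.098).

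**Figure D4:**
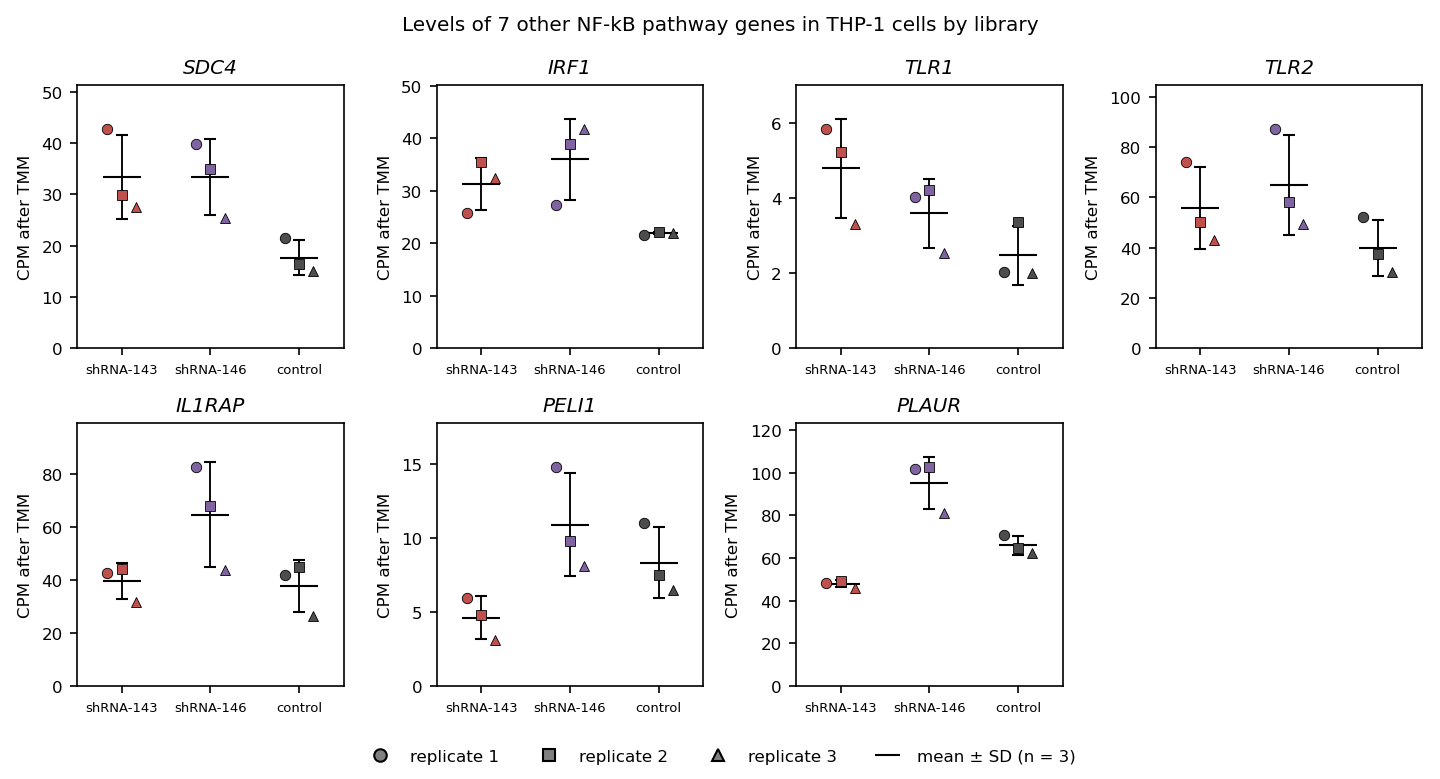
CPM after TMM scaling in each library for the 7 other pathway genes that passed in any comparison with the replicate block, drawn as in the plot of the 8 members' levels, with bars for the mean ± SD of 3 libraries. All knockdown libraries of SDC4 and IRF1 lie above the control libraries, and PLAUR and PELI1 are higher with shRNA-146 and lower with shRNA-143 than in control cells.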

How the data were processed

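RNA-seq of polyadenylated RNA from 9 THP-1 libraries was used, 3 in each of 3 groups named by the sample titles. The authors deposited raw counts per gene for 58735 Ensembl identifiers, all in GENCODE release 29, and a comparison table for each shRNA with their own log2 fold changes, p-values and adjusted p-values, made by a test that their headers do not name. Tools listed in the submitters' processing notes, with no roles, are featureCounts, DESeq2, STAR 2.5 and fastp, with the build hg38. Whether counting used strand is not stated. The series calls the replicates biological but does not say that they came from separate cultures, so a p-value reflects variation among these libraries, possibly technical, and no more.

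Genes kept by edgeR's filterByExpr went through TMM scaling and the robust quasi-likelihood test of edgeR 4.0.16 (R 4.3.3), with all 9 libraries in 1 fit of 3 group means (6 residual degrees of freedom), adjusted by Benjamini-Hochberg over 14975 genes with a threshold of 0.05. Each standard error was derived from a log2 fold change and the F statistic of its test. DESeq2 1.42.0, limma-voom (limma 3.58.1), other scalings, no filter, a gene length correction and left-out libraries were alternatives, and the test was tried on simulated data first. With 3 libraries against 3, an exact permutation test of a single gene cannot go below p = 0.1, so none is given. Counting limits cover counting error only.

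The sample titles carry replicate numbers, 1 to 3 in every group. Deviations from group means (log2 CPM, prior count 2) correlated at 0.252 to 0.758 in the 9 same-number pairs, each over the criterion of 0.1, against -0.678 to 0.535 for different numbers, and 9 of 9 libraries matched best with their own number, so a fit that blocks on the number, leaving 4 residual degrees of freedom, stands beside results whose call it changes. The data, not the labels, are the source of this pairing. It was weaker for number 3. There shRNA-143 replicate 3 correlated at 0.329 with control replicate 3 and at 0.450 with control replicate 2. For shRNA-146 replicate 3 these values were 0.252 and 0.520. Each of these knockdown libraries matched best with replicate 3 of the other construct (0.558), not with a control library. The 39 genes, the other lists and the alternatives were chosen with earlier results of these data known. Named in full were members that passed in either fit and RELA, NFKB1 and NFKBIA, other members by levels, ranges or, where they separated groups or had a small unadjusted p with the block, by values chosen after these were seen. Other pathway genes were named where they passed. Promoter windows are RefSeq's on GRCh38.p14, matched by symbol.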

Additional observations from a re-analysis of the deposited data

Results flagged for a closer look

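TNFAIP3 and IER3 were each lower in all 3 shRNA-143 libraries and higher in all 3 shRNA-146 libraries than the control library of the same number. TNFAIP3 had 3.92, 6.22 and 5.94 CPM with shRNA-143 and 4.97, 6.91 and 7.07 CPM with shRNA-146, against 4.55, 6.87 and 6.50 CPM in control cells. IER3 had 0.385, 1.08 and 0.437 CPM with shRNA-143 and 0.711, 2.13 and 0.690 CPM with shRNA-146, against 0.592, 1.26 and 0.544 CPM in control cells. The log2 difference of shRNA-146 over shRNA-143 was 0.24 ± 0.27 for TNFAIP3 and 0.89 ± 0.60 for IER3 (edgeR adjusted p = 1.0 for both), and with the replicate block 0.25 ± 0.16 and 0.85 ± 0.30 (adjusted p = 0.67 and 0.30), so neither difference passed. Both constructs were set against the same 3 control libraries, which limits what opposite signs show.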

How the results depend on the processing

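The count of NF-kB pathway genes that passed was 0 in each of the 4 comparisons without the replicate block, and also with median-of-ratios scaling, library size scaling, no low-count filter, limma-voom and each library left out in turn. DESeq2 passed 1 gene, BIRC3, for shRNA-146, where 1.05% of all tested genes passed. With the replicate block 3 passed for shRNA-146 and 3 for the mean of both constructs (4.42% and 5.74% of all tested genes passed). With the block and a gene length correction 2 and 2 passed (3.28% and 4.25% of all). With the block and library size scaling 4 (BIRC3, CYLD, ICAM1 and IL1B) and 2 (BIRC3 and NFKBIZ) passed (5.58% and 5.73% of all). Without the 3 libraries numbered 1 the counts were 2, 6 and 6 for shRNA-143, shRNA-146 and the mean (3.91%, 6.13% and 9.99% of all). With the block they were 4, 8 and 10 (10.5%, 14.1% and 19.4% of all), beside 1 for shRNA-146 against shRNA-143 (2.13%). Over single libraries left out, with and without the block, counts ran from 0 to 4 for shRNA-143, 0 to 8 for shRNA-146, 0 to 11 for the mean and 0 to 2 between the constructs. The cause was not tested.

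NFATC2 was lower in every fit run and passed with the block (log2 fold change -2.27 for shRNA-143 and -1.96 for shRNA-146), with the block and length correction (-2.39 and -2.10), with the block and library size scaling (-2.19 and -1.83) and without the libraries numbered 1 (-1.93 and -1.76, with the block -1.93 and -1.77). With all 9 libraries and no block, it did not pass by edgeR under TMM, median-of-ratios or library size scaling or without the filter. Nor did NFATC2 pass by DESeq2 or limma-voom, which also had no block. With single libraries left out it ran from -2.52 to -1.65 for shRNA-143 and from -2.27 to -1.48 for shRNA-146, passing in 9 of 9 fits with the block and 0 of 9 without. Among the named values recomputed under every setting, those of 6 members turned sign. The mean over both constructs was -0.060 for NFKB1 and 0.10 for NFKBIA with the block and length correction, 0.074 and 0.063 for NFKBIA with library size scaling without and with the block, and 0.035 for CCL5 with the block and length correction. BCL3 between shRNA-146 and shRNA-143 was -0.022 with the block, -0.014 with the block and length correction and -0.060 by limma-voom. Leaving out single libraries gave -0.042 to 0.63 for RELA with shRNA-146, -0.14 to 0.25 for NFKB1 and -0.17 to 0.065 for NFKBIA over both constructs, and between the constructs -0.33 to 0.50 for BCL3 and -0.24 to 0.40 for NFKBIZ.

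With the block, library size scaling moved the median of all genes to 0.12 for the mean of both constructs, against 0.008 with TMM, and calls over all genes to 664 higher and 194 lower, against 447 and 412. The median of the 36 genes was then 0.21, against 0.10. Median log2 fold changes over all genes, binned by length, ran from -0.22 in the shortest of 5 bins to 0.19 in the longest with the block. The 36 genes' median length was 3778.5 bases and that of all tested genes 4550. BIRC3 rested on 4 to 6 control counts a library, which limits its precision.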
